A study of Mus musculus with 2 samples.

Results

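The Mir322-Mir503 cluster is a group of 7 miRNA genes on the mouse X chromosome: Mir322, Mir503, Mir351, Mir542, Mir450-2, Mir450-1 and Mir450b. The members were taken by gene name from GENCODE release M21, and all 7 were found among the 2202 miRNA genes of the count tables. They were measured by microRNA-seq in the gastrocnemius, the large calf muscle, of male B6CASTF1/J mice aged 10 days. The strain is the F1 hybrid of C57BL/6J and CAST/EiJ. Both samples belong to 1 group, for which no treatment is named. The labels number them as biological replicates 1 and 2 but give both the same donor entry, so it is not certain that they are separate animals. No contrast between conditions exists, and any difference between the libraries compares those 2 samples.

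A miRNA gene is transcribed as a longer RNA that folds into a hairpin, and the hairpin is cut to a short duplex whose strands are called the 5p and 3p arms. An arm loaded into an Argonaute protein pairs with messenger RNAs mainly through its seed, bases 2 to 8, so miRNAs with the same seed can act on overlapping sets of transcripts. The rodent Mir322 corresponds to the human MIR424. In mouse myoblast cultures, miR-322 and miR-503 are known to accumulate as the cells differentiate and to favour exit from the cell cycle, with the phosphatase gene Cdc25a among their targets.

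The arms are printed first because a seed places each member in a family. In each line the seed is in capitals and the sequence, from RefSeq on GRCm38.p6 (the mm10 build), runs 5′ to 3′. RefSeq arms were found for all 7 members. The first set holds the 5p arms of Mir322 and Mir503 with the 5p arms of the other counted genes that have the same bases 2 to 7, the miR-15 seed family, whose members are known as regulators of cyclin transcripts.
miR-322-5p: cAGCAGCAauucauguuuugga
miR-503-5p: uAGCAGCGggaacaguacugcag
miR-15a-5p: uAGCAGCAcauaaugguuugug
miR-15b-5p: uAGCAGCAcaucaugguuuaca
miR-16-5p: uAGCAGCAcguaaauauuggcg
miR-195a-5p: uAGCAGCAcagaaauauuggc
miR-497a-5p: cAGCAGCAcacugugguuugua
All bases of the seed were the same in miR-322-5p and the 5 relatives from miR-15a-5p to miR-497a-5p, whereas miR-503-5p matched miR-322-5p from base 2 to base 7 and differed at base 8. In an ungapped comparison of the whole arms miR-322-5p had the same base as miR-15a-5p at 15 of 22 positions, as miR-16-5p at 12 of 22 and as miR-503-5p at 11 of 22.

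The second set shows the 5p arm of Mir351 beside the arms of the Mir125 genes, which carry the same 7 seed bases.
miR-351-5p: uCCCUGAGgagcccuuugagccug
miR-125a-5p: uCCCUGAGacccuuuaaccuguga
miR-125b-5p: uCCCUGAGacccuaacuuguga
In an ungapped comparison, which does not count stretches that match at an offset, miR-351-5p had the same base as miR-125a-5p at 10 of 24 positions.

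The third set holds both arms of Mir542 and all arms of the 3 Mir450 genes.
miR-542-5p: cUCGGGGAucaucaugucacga
miR-542-3p: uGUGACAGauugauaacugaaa
miR-450a-5p: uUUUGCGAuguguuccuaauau
miR-450b-5p: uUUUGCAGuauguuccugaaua
miR-450a-1-3p: aUUGGGAAcauuuugcauaaau
miR-450a-2-3p: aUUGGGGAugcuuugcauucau
miR-450b-3p: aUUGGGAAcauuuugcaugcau
The arm miR-450a-5p is encoded by both Mir450-1 and Mir450-2. The 3p arms of Mir450-1 and Mir450b had the same base at 20 of 22 positions, counted from the 5′ end, and differed by A19G and A20C (first miR-450a-1-3p, then miR-450b-3p). Of the 14 arms of the 7 members, 13 sequences and 12 seeds were distinct. The seeds of miR-542-3p and of the 3p arms of Mir322, Mir503 and Mir351 occurred in no other gene of the RefSeq miRNA table. The same held for bases 2 to 8 of miR-503-5p, miR-450b-5p and miR-450a-2-3p.

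All member hairpins lie on the minus strand within 6353 bp of chromosome X. In the direction of transcription the order is Mir322 (chrX:53054255-53054349), Mir503 (chrX:53053984-53054054), Mir351 (chrX:53053255-53053353), Mir542 (chrX:53049403-53049487), Mir450-2 (chrX:53048299-53048367), Mir450-1 (chrX:53048154-53048244) and Mir450b (chrX:53047997-53048078), in mm10 coordinates. Mir322 and Mir503 are 200 bp apart, Mir503 and Mir351 630 bp, and the gap from Mir351 to Mir542 is 3767 bp. The 3 Mir450 hairpins are separated by 54 and 75 bp. GENCODE M21 places the non-coding transcript gene C430049B03Rik upstream of Mir322 with no member inside it, and the lincRNA gene Gm28730 between Mir351 and Mir542. RefSeq gives C430049B03Rik wider bounds (chrX:53053112-53057190), which hold the hairpins of Mir322, Mir503 and Mir351. Mir322, Mir503, Mir351 and Mir542 had hairpin GC contents of 50.5% to 54.9%, and the 3 Mir450 hairpins had 30.5% to 36.2%.

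Levels are counts per 1000000 reads assigned to miRNA genes (CPM), taken from the sense-strand counts. Replicate 2 had 5062714 assigned reads and replicate 1 had 3999172. Mir206, a miRNA known to be restricted to skeletal muscle, stood at 87446 CPM in replicate 2, against 100599 CPM in replicate 1. Of the 7 genes of the nerve list, Mir338 was detected, at 421 CPM in replicate 2 and 473 CPM in replicate 1. Mir124a-1, Mir9-1 and Mir9-3 had at most 4 counts per library, and Mir124a-2, Mir124a-3 and Mir9-2 had 0 in both. Reads that match several genomic places were counted for no gene, and shared stretches are not given here for the marker genes. A low count of a marker gene with similar copies therefore need not mean absence. In bulk tissue, fewer cells of a type and less RNA per cell cannot be told apart. Detection was set at 10 or more counts in each library, which 7 of 7 members and 313 of the 2202 genes reached. The sense counts of the members equalled their unstranded counts, and 0 reads were counted on their opposite strand.

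The cluster was abundant among the assigned reads of this muscle, and 1 gene gave most of it. The members held 2.32% of the assigned counts in replicate 2 (95% interval, exact binomial, 2.31 to 2.34) and 1.99% in replicate 1 (1.98 to 2.01), a mean of 2.16% ± 0.23 (SD, n = 2). Intervals cover only the counting error of reads within 1 library. The reads carry no molecular identifiers, so the counts are of reads and not of molecules. Mir322 supplied 77.7% of the cluster's counts in replicate 2 (interval 77.5 to 78.0) and 72.4% in replicate 1 (72.1 to 72.7). Mir503, Mir351 and Mir542 together supplied 20.7% in replicate 2 and 25.9% in replicate 1, and the 3 Mir450 hairpins 1.55% and 1.77%, in the same order.

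**Figure D1:**
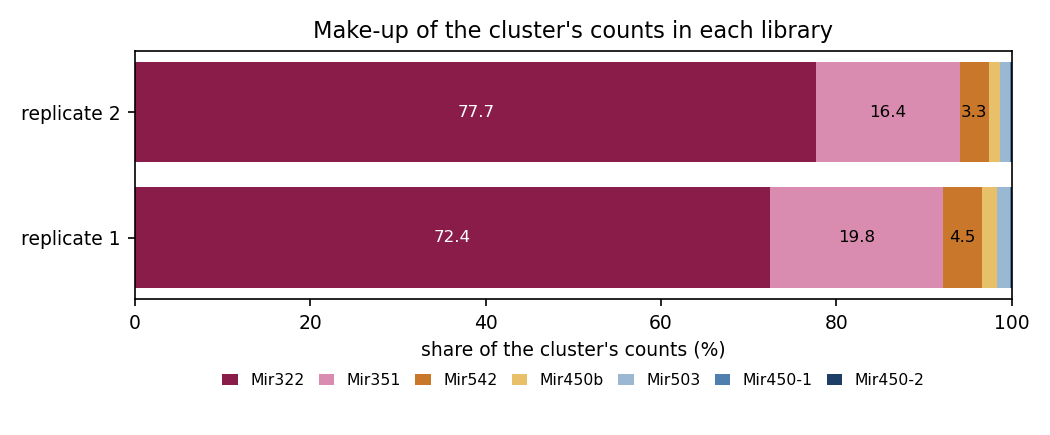
Share of the cluster's counts (percent, horizontal axis) held by each member, as stacked bars with 1 bar per library. Mir322 takes 77.7% in replicate 2 and 72.4% in replicate 1, Mir351 takes 16.4% and 19.8%, and Mir450-1 and Mir450-2 are too thin to see.

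Mir322 had 91470 counts in replicate 2 and 57697 in replicate 1, which is 18067 and 14427 CPM. Its mean of 16247 ± 2574 CPM (SD, n = 2) placed it at rank 15 of all miRNA genes, and it held rank 15 in each library separately. Genes with copies of an arm lose the reads that match several genomic places, so Mir322 can stand higher here than with those reads. Its neighbour Mir503, 200 bp away and nearly matched in seed, had 1289 counts in replicate 2 and 1247 in replicate 1. That is 255 and 312 CPM, a mean of 283 ± 40 CPM at rank 123. Reads of Mir322 outnumbered those of Mir503 by 71.0 to 1 in replicate 2 (interval 67.2 to 75.0) and by 46.3 to 1 in replicate 1 (43.7 to 49.0), so the gap between these neighbours far exceeded the spread between the libraries. Their arms occur in no other annotated miRNA hairpin, and neither hairpin shares a stretch of 14 nt or more with another miRNA gene.

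Mir351 was the second member by level, with 19251 counts in replicate 2 and 15778 in replicate 1. Its 3803 and 3945 CPM differed little, with a mean of 3874 ± 101 CPM at rank 37. Mir542, whose 3p arm is known to target the survivin transcript in human cells, had 3853 counts in replicate 2 and 3593 in replicate 1, or 761 and 898 CPM, with a mean of 830 ± 97 CPM at rank 77. Both lay above 75% of the 313 detected genes, Mir351 above 88.2% of them and Mir542 above 75.4%. The hairpins of Mir351 and Mir542 likewise share no stretch of 14 nt or more with another miRNA gene.

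The 3 Mir450 hairpins differed widely although they lie side by side. Mir450b had 1560 counts in replicate 2 and 1277 in replicate 1, or 308 and 319 CPM, with a mean of 314 ± 8 CPM. Mir450-1 had 211 counts in replicate 2 and 103 in replicate 1, or 41.7 and 25.8 CPM. Mir450-2 had 50 and 35 counts, or 9.88 and 8.75 CPM, in the same order of libraries, and was the lowest member in both.

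The shared arm bears on the last 2 of these values. Reads that match several genomic places were counted for no gene, and this class took 48.0% of the reads of replicate 2 and 47.0% of those of replicate 1. A full-length read of miR-450a-5p matches both Mir450-1 and Mir450-2, so it could not be assigned to either, and the counts of both genes can be too low. How many reads were left out this way was not tested. The hairpins are shown with their arms in capitals to place the shared 5p arm, the first block of capitals in Mir450-1 and Mir450-2.
Mir450-2: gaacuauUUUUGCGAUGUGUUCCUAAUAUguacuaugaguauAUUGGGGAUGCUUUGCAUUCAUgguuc
Mir450-1: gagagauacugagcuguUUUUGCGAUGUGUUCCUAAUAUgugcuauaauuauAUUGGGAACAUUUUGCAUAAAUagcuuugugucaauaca
Mir450b: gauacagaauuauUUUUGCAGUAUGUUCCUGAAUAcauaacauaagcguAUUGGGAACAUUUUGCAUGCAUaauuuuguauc
The longest stretch that Mir450-1 and Mir450-2 share is 25 nt, which covers the 22 nt arm. Mir450b shares 19 nt with Mir450-1, short of its 22 nt arms. Counts are per hairpin, so the 5p and 3p arms of a member cannot be told apart.

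By mean level the members stood in the order Mir322, Mir351, Mir542, Mir450b, Mir503, Mir450-1 and Mir450-2. Each step but 1 held in both libraries and exceeded the larger SD of the pair. The exception was Mir450b over Mir503, whose means differed by 30.5 CPM against an SD of 40.5 CPM. Divided by hairpin length, these 2 changed places and the other 5 stayed, a check added after the values were seen. Level followed position only loosely: over the 7 members, Spearman's rho of mean level with distance from Mir322 was -0.57, given as a description because these points come from the same 2 libraries. Mir503 broke the order near the start of the cluster and Mir450b at its end. The counts of Mir450-1 and Mir450-2 can be too low through their shared arm. How far that loss shapes the order, the rho and the break at Mir450b was not tested. Library preparation can favour some small RNA sequences over others, and CPM were not corrected for that.

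**Figure D2:**
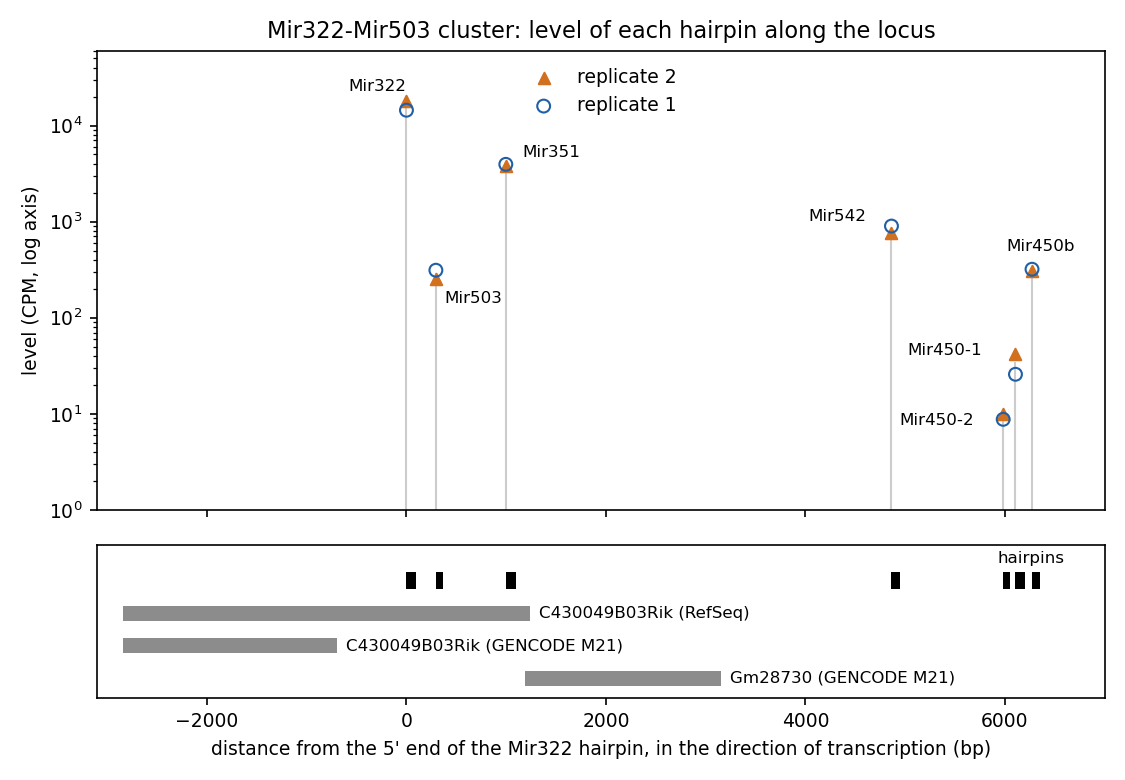
Level of each member in CPM (log axis) against its distance in bp from the 5′ end of the Mir322 hairpin, with triangles for replicate 2 and circles for replicate 1 and grey lines to the mean. The lower panel draws the hairpins and the non-coding genes to scale. Mir503, at 283 CPM, stands between Mir322 at 16247 CPM and Mir351 at 3874 CPM.

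Among genes with the miR-15 seed, Mir322 had the highest level in assigned reads in both libraries. RefSeq lists 12 such genes and all were in the tables, of which 8 were detected and 4 (Mir195b, Mir6342, Mir6353 and Mir6419) had no count, which allows up to 0.593 CPM in replicate 2 and 0.75 CPM in replicate 1. Mir322 and Mir503 together held 85.6% of the family's counts in replicate 2 (interval 85.4 to 85.8) and 82.9% in replicate 1 (82.6 to 83.2). Counts are per hairpin and can hold reads of both arms, and the 3p arms of Mir322 and Mir503 have other seeds. The share is therefore one of genes, not of reads that carry the seed. The other 6 detected genes summed to 3078 CPM in replicate 2, against 3044 CPM in replicate 1. Mir16-1 led them with 772 CPM in replicate 2, against 733 CPM in replicate 1. Mir195a followed with 590 and 634 CPM, Mir15a with 615 and 603 CPM, Mir497 with 539 and 536 CPM, Mir15b with 435 and 422 CPM and Mir16-2 with 128 and 117 CPM, in the same order of libraries. In assigned reads Mir503 was thus below 5 of these 6 genes and above Mir16-2. Mir16-1 and Mir16-2 encode the same arm, so their counts can be too low and the share of Mir322 and Mir503 too high. Where Mir503 stands against Mir16-2 is open to the same loss. Without both Mir16 genes the share of Mir322 and Mir503 was 88.2% as a mean over the libraries. Leaving out counted genes can only raise that share, so this does not test the loss.

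Mir351 likewise stood above the counted genes with its seed. Mir125a had 967 CPM in replicate 2, against 950 CPM in replicate 1, Mir125b-1 had 286 and 287 CPM, and Mir125b-2 had 74.3 and 84.8 CPM. Mir6367 and Mir6394, with the same seed, had no count. Mir351 held 74.1% of the counts of these 6 genes in replicate 2 (interval 73.6 to 74.7) and 74.9% in replicate 1 (74.3 to 75.5), shares that differed by less than 1 percentage point. The arm miR-125b-5p is encoded by both Mir125b genes, so their counts can be too low and this share too high. The counts can also hold reads of the 3p arms, and that of Mir351 has another seed. Other genes sharing a seed with a member arm were Mir6966 (with miR-542-5p) and Mir6352 (with the 3p arms of Mir450-1 and Mir450b).

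**Figure D3:**
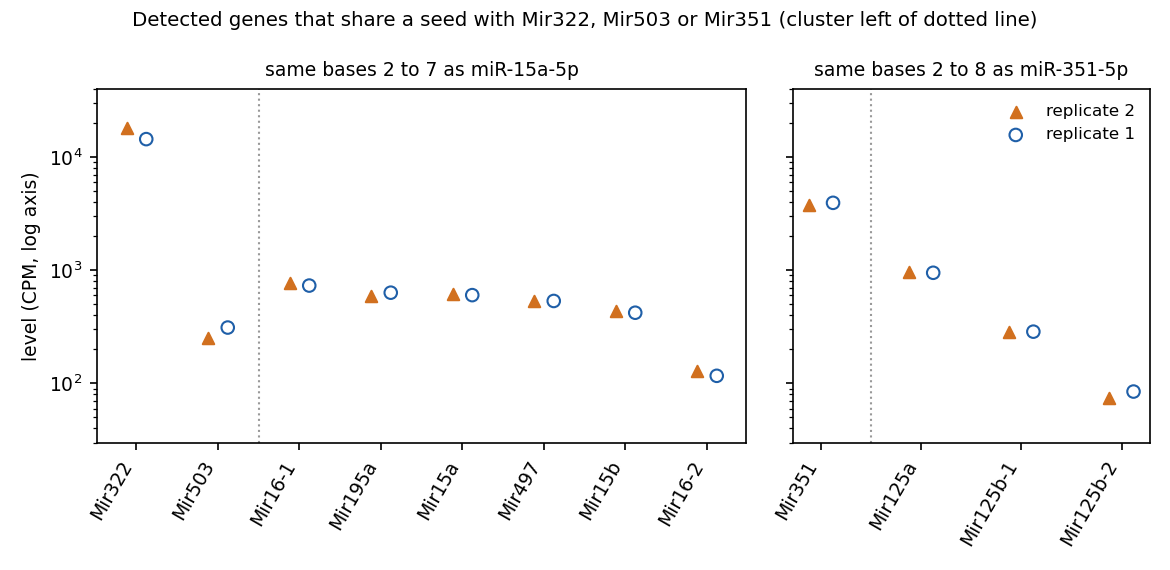
Levels in CPM (log axis) of the detected genes that share a seed with cluster members, with triangles for replicate 2 and circles for replicate 1 and cluster members left of the dotted line. Mir322 lies at 18067 and 14427 CPM in replicates 2 and 1 and the highest relative, Mir16-1, at 772 and 733 CPM. Mir351 lies at 3803 and 3945 CPM and Mir125a at 967 and 950 CPM.

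The cluster also held more than 50% of the assigned counts of X-linked miRNA genes. Of 142 miRNA genes on the X chromosome 33 were detected, and the 7 members had 55.9% of the X-linked counts in replicate 2 (interval 55.7 to 56.1) and 51.1% in replicate 1 (50.9 to 51.4). X-linked genes with copies of an arm lose the reads that match several genomic places, so this share can be too high. How far was not tested. The next gene on the X in assigned reads, Mir652, was named after its values were seen. It had a level close to that of Mir351, with 3850 and 3930 CPM in replicates 2 and 1. The nearest other miRNA genes form the Mir106a cluster, a paralogue of the Mir17-92 cluster, which starts 305429 bp away on the same strand. Its 6 genes (Mir106a, Mir18b, Mir20b, Mir19b-2, Mir92-2 and Mir363) summed to 71.1 CPM in replicate 2, against 75.3 CPM in replicate 1, with 4 of them detected. The Mir322-Mir503 cluster had 327 times as many counts in replicate 2 and 265 times as many in replicate 1, although Mir92-2 and Mir19b-2 share 22 and 25 nt with other miRNA genes and can be undercounted. On the other side, the nearest annotated miRNA genes, Gm22103 and Mir5116, lie 3016314 and 3533502 bp away. Gm22103 had 0 counts in both libraries but shares at least 60 nt with other miRNA genes, and Mir5116 had 1 count in replicate 2 and 0 in replicate 1.

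The genes nearest to Mir322 in level over the 2 libraries, by the summed absolute difference in log2(CPM + 1), were Mir99a (0.57), Mir541 (0.69) and Mirlet7d (0.72). Those nearest to Mir503 were Mir27a (0.19), Mir467e (0.19) and Mir181a-1 (0.19). None of these 6 lies on the X chromosome, and with 2 libraries this is a likeness of level only.

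Counts of the members were compared between the libraries by an exact binomial test (two-sided), with library totals scaled by TMM and Benjamini-Hochberg adjustment over the 332 genes averaging 10 or more counts. It called 4 of 7 members, 2 higher and 2 lower in replicate 2. Of all tested genes it called 39.5%, 27.1% as higher and 12.3% as lower, so the members' count is near this background. This test covers counting error only. Replicate 2 exceeded replicate 1 in Mir322 by 1.32-fold (log2 0.40, interval 0.38 to 0.41, adjusted p at most 1e-300, the smallest value written). Mir450-1 was 1.70-fold higher (log2 0.77, interval 0.42 to 1.12, adjusted p = 3.62e-05 by the exact binomial test). Mir542 gave a log2 ratio of -0.17 (interval -0.23 to -0.10, adjusted p = 3.16e-06 by the exact binomial test), and Mir503 one of -0.22 (interval -0.33 to -0.11, adjusted p = 0.000515 by the exact binomial test). Mir351 (log2 0.02), Mir450b (log2 0.02) and Mir450-2 (log2 0.25, interval -0.41 to 0.91) did not pass. With plain library totals, which shift every log2 ratio by -0.07, Mir351 gave -0.053 and passed as lower, and Mir450b gave -0.051. That scaling called 5 of 7 members, 2 higher and 3 lower, and 42.5% of all tested genes, 18.7% as higher and 23.8% as lower, so the balance of directions depends on the scaling. DESeq2 size factors called 4 of 7 members and 39.8% of all tested genes.

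Leaving out Mir322, the summed level of the other 6 members was 5178 CPM in replicate 2, against 5509 CPM in replicate 1. The median absolute log2 ratio was 0.22 over the 7 members and 0.16 over all tested genes. A further test, edgeR's exact test, takes its dispersion from the same differences between the libraries that it then tests. It can only set apart genes that exceed the common spread, so not passing it does not mean that the libraries are alike. In edgeR's exact test, a negative binomial test with its dispersion taken from these 2 libraries (biological coefficient of variation 0.14), 0 of 7 members passed and 6 of 332 genes did, 1.81%. At an unadjusted p under 0.05 in that test there was 1 member, Mir450-1 (adjusted p = 0.466), among 23 genes, and Mir322 and Mir503 each had an adjusted p of 1.

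**Figure D4:**
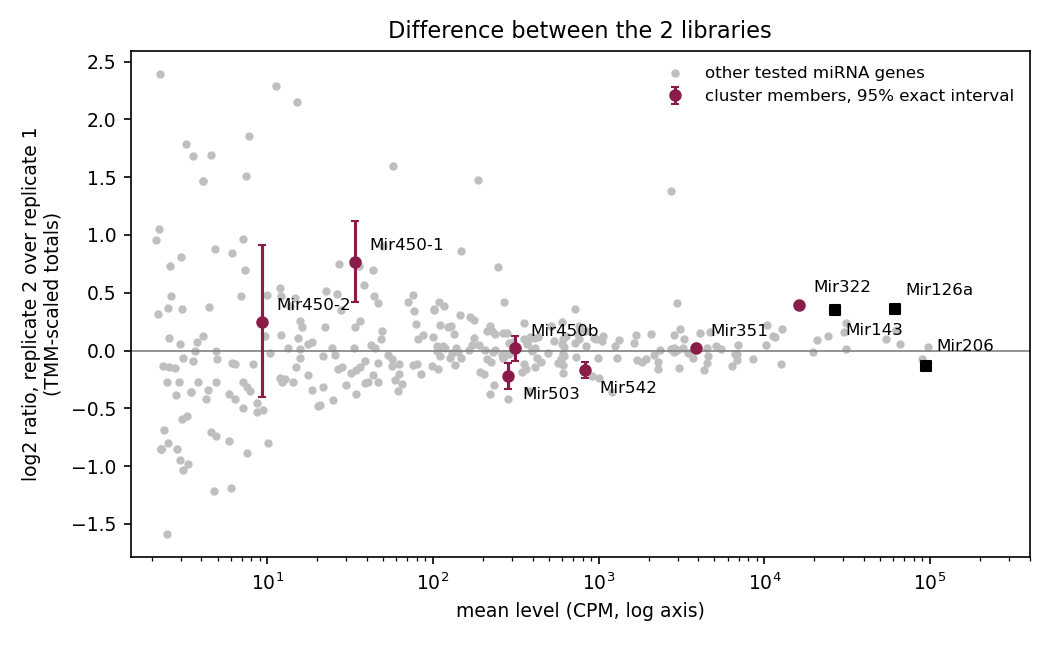
Log2 ratio of replicate 2 over replicate 1 (TMM-scaled totals, vertical axis) against mean level in CPM (log axis) for the 332 tested genes. Cluster members are coloured with 95% exact intervals, other genes are grey, and Mir126a, Mir143 and Mir206 are black squares. Mir322 (0.40) lies near Mir126a (0.36) and Mir143 (0.35), while Mir503 (-0.22) and Mir542 (-0.17) lie below 0.

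The ratio of Mir322 was also set against the most abundant genes, a comparison chosen after the values were seen. Over all tested genes, 77.7% had a smaller absolute log2 ratio than Mir322. Of the 21 genes that averaged 10000 CPM or more, Mir322 had the highest log2 ratio and the median was 0.11. Next came Mir126a (0.36), known from endothelium, and then Mir143 (0.35), known from smooth muscle. Mir126a stood at 67925 CPM in replicate 2, against 55784 CPM in replicate 1. The smooth muscle list of Mir143 and Mir145a summed to 29713 CPM in replicate 2, against 24571 CPM in replicate 1, but Mir145a gave a log2 ratio of -0.05. The 2 erythroid markers summed to 4088 CPM in replicate 2, against 1680 CPM in replicate 1. Mir451a gave a log2 ratio of 1.38 and Mir144 one of 0.86. The 8 skeletal muscle markers, 6 of them detected, summed to 87956 CPM in replicate 2, against 100971 CPM in replicate 1, and nearly all of both sums was Mir206, which gave a log2 ratio of -0.13. Marker genes with similar copies can be undercounted, because reads with several matches were counted for no gene. The weight of Mir206 in these sums can therefore be too high. Of the other detected genes of the skeletal muscle list, Mir499 (0.72), Mir208b (0.69) and Mir1a-2 (0.36) passed the exact binomial test as higher in replicate 2. Mir133b (-0.28) and Mir133a-1 (-0.38) had ratios below 0 and did not pass it. Mir499, Mir208b and Mir1a-2 did not pass edgeR's exact test, whereas Mir451a and Mir122 of the other lists did. The 6 fibroblast markers, 5 of them detected, summed to 4433 CPM in replicate 2, against 4922 CPM in replicate 1. Of the detected ones, Mir214 gave a log2 ratio of -0.36, Mir199a-2 -0.14, Mir199b -0.004, Mir21a 0.02 and Mir140 0.03. Mir214 alone among them passed the exact binomial test. The leukocyte list of 4 genes summed to 447 CPM in replicate 2, against 423 CPM in replicate 1, and the nerve list of 7 genes to 423 and 474 CPM. Mir122 of the hepatocyte list had 272 and 103 CPM, in the same order of libraries, a log2 ratio of 1.48. The part of these cell types in the ratio of Mir322 was not tested.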

How the data were processed

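The series holds microRNA-seq of 2 gastrocnemius samples taken at 10 days of age, 1 group. The authors deposited raw read counts per miRNA gene for each library, on assembly mm10 with GENCODE M21, per the metadata text deposited with each table. For the aligner and the counting program, the sources used here give no name. Column 3 (sense strand) was used. The summary rows (reads unmapped, with several matches, or in no gene) held 60.7% of reads in replicate 2 and 58.7% in replicate 1 and were left out of totals. With 5062714 assigned counts in replicate 2 and 3999172 in replicate 1, the limit that a count of 0 allows (3 counts) equals 0.593 and 0.75 CPM.

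CPM are given as mean ± SD over the 2 libraries. Names and coordinates came from M21, where all 2202 identifiers were found, and arms from RefSeq (GRCm38.p6). Shared hairpin stretches of 14 to 60 nt were searched over the M21 miRNA transcripts, without a genome sequence. Ratios are replicate 2 over replicate 1, with TMM from edgeR 4.0.16, tested by an exact binomial test at 0.05 after Benjamini-Hochberg adjustment. DESeq2 1.42.0 size factors, plain totals, the unstranded counts, a negative binomial test and other minimums were alternatives. A pseudocount of 1 CPM served the level likeness. Neighbours in the order of levels were called different where both libraries gave the same order and the means differed by more than the larger SD. The binomial p-values cover counting error only, and the labels give both samples the same donor entry, so the spread between the libraries may be technical.

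Named genes are the members, all genes with a member's seed, the nearest miRNA genes and the Mir106a cluster on the X, the 3 genes nearest in level to Mir322 and to Mir503, and cell type markers. The members and lists were chosen with earlier results of these data known. Tables were computed in Python 3.11.15 (pandas 2.3.3, scipy 1.17.1) and ratios in R 4.3.3.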

Additional observations from a re-analysis of the deposited data

Results flagged for a closer look

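Reads with several genomic matches, which lie outside the gene counts used for the comparisons, took 48.0% of the reads of replicate 2 and 47.0% of those of replicate 1. Full-length reads of miR-450a-5p, encoded by Mir450-1 and Mir450-2, fall into this class. Its content by miRNA was not analysed here.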

How the results depend on the processing

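The cluster's share of 2.16% became 2.64% with unstranded counts, where reads of genes overlapping on both strands drop out of the total, and 0.868% with all reads as the denominator. The share of Mir322 in the cluster (75.0%) moved by less than its SD, to 75.2%, without Mir450-1 and Mir450-2, and lay between 72.4% and 77.7% with 1 library. Leaving out these Mir450 copies does not restore the reads of their shared arm. Unstranded counts could not move the share of Mir322, since they equal the sense counts for every member. The share of Mir322 and Mir503 in the miR-15 seed family (84.3%) was 86.6% with unstranded counts, where Mir497 has no reads, and 88.2% without genes that share at least 20 nt. Both settings take counts of relatives out of the family's total, so they can only raise this share. The 4 calls between the libraries (2 higher, 2 lower) numbered 4 with DESeq2 size factors, without the filter on low counts and with unstranded counts, 5 with plain totals and 0 with the edgeR exact test (0 higher, 0 lower). Plain totals turned Mir351 to -0.053 and Mir450b to -0.051, and for neither was the ratio past the test with TMM. All 7 members stayed detected with minimums of 1 and 5 counts and in each library alone. The 6 genes nearest in level stayed the same with a pseudocount of 0.1 CPM and with unstranded counts. No paired analysis was possible because the series holds 1 group. Depth limits the ratio of Mir450-2, from 50 and 35 counts in replicates 2 and 1.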
